A study of Mus musculus with 25 samples.

Results

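The 44 collagen genes of the mouse were followed through 25 melanomas from mice given anti-CTLA-4, which blocks an inhibitory receptor on T cells, or a control antibody. They are the rows of the deposited count table whose gene symbol reads Col, a number, the letter a and a number, 44 of 55450 rows. By the fibres they build, 11 are fibrillar collagens, 8 belong to basement membranes and 25 are of other kinds. All 25 tumours came from 1 melanoma line, B2905 (M4), implanted into C57BL/6 mice. Dosing at 10 mg/kg began once tumours averaged 75 mm3 and ran for 2 weeks at 2 doses a week. The 5 controls received IgG2b, the isotype control. Of 30 mice given anti-CTLA-4, 20 gave libraries, and outcome was scored 10 to 11 days after dosing ended: 8 responders shrank, 6 were stable and 6 non-responders grew. Each library is bulk RNA of 1 tumour, and the age of the mice is not given in the sources used here. Tumours are numbered within their group only to name them.

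Collagens are secreted proteins in which 3 chains wind into a triple helix. Fibrillar collagens, led by types I, III and V, assemble into the fibres that give tissue its strength, and in tumours they are made chiefly by fibroblasts. Type IV collagen forms the sheet-like network of basement membranes under epithelia and around blood vessels, where types XV and XVIII are also found. The remaining collagens make beaded filaments (type VI), anchoring fibrils (type VII) or short-chain networks, sit on the surface of other fibrils, or span the cell membrane.

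The libraries differed in composition as well as in outcome. Total counts per library ran from 17.7 to 34.3 M among controls, 10.9 to 25.4 M among non-responders, 14.8 to 22.8 M among stable tumours and 8.76 to 21.2 M among responders. Protein-coding genes took 82.9% to 89.2% of the counts in every control, stable and non-responder library and in responder 5, which had 87.0%. In the other 7 responders they took 23.8% to 74.3%. The counts of mitochondrial rRNA genes made up 0.546% to 0.966% of the total among controls, 0.783% to 1.06% among non-responders, 1.31% to 7.28% among stable tumours and 1.15% to 14.3% among responders, so that this share separated stable tumours and responders from the other groups. Its part in the collagen differences was not tested. The numbers in the library names follow the groups, and what they number is not given in the sources used here. Melanocytic markers, the mark of the implanted line, summed over 7 genes to 10504 to 17109 scaled CPM among controls, 723 to 13868 among non-responders, 227 to 504 among stable tumours and 303 to 722 among responders, and none was at 0 throughout a group; their part in the collagen differences was not tested. Values of 1 gene across tumours are given as scaled CPM (counts per M counts after TMM scaling). Pairwise differences are log2 fold changes ± SE from edgeR's quasi-likelihood test, with p adjusted over all 18032 genes tested, and a gene is called below an adjusted p of 0.05. Levels of different genes are compared only in the authors' RPKM (reads per kilobase and M reads). In bulk tumour RNA, more cells of a type and more RNA per cell cannot be told apart.

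On the per-length scale a few genes held most of the collagen RNA. Col3a1 took 20.9% of the summed collagen RPKM (group means weighted equally), Col1a1 13.9%, Col1a2 13.2% and Col4a1 10.1%. Col6a1 followed with 7.06%, Col5a2 with 6.44% and Col28a1 with 5.33%. Col6a3 is left out of every RPKM value, since RPKM of it were not used here. The fibrillar sum averaged 724 ± 164 RPKM (SD) among controls, 1485 ± 553 among non-responders, 1632 ± 396 among stable tumours and 1529 ± 455 among responders. Every stable tumour and responder lay above every control in this sum, and 2 of the 6 non-responders lay within the control range. The basement membrane sum moved less, with 414 ± 40.4, 531 ± 121, 433 ± 68.0 and 395 ± 61.1 RPKM in the same order of groups. The other collagens summed to 233 ± 41.5, 510.1 ± 176, 665 ± 87.2 and 642 ± 110.1 RPKM. The ratio of the fibrillar to the basement membrane sum was 1.76 ± 0.435 among controls, 2.72 ± 0.506 among non-responders, 3.88 ± 1.23 among stable tumours and 3.91 ± 1.08 among responders. As a share of protein-coding counts, all collagens together made up 1.47% ± 0.226 among controls, 2.65% ± 0.855 among non-responders, 2.84% ± 0.447 among stable tumours and 2.79% ± 0.508 among responders.

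**Figure D1:**
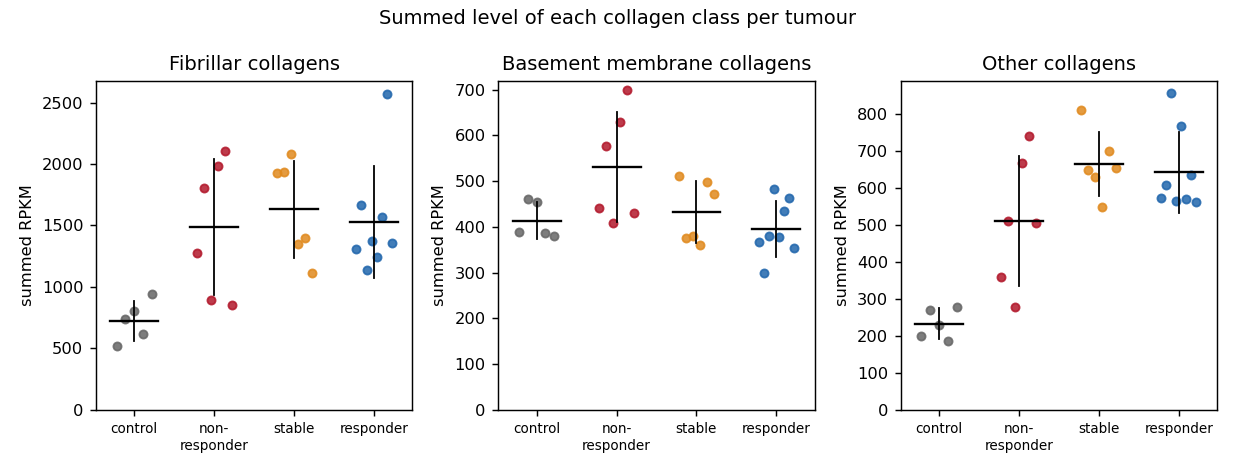
Summed RPKM of the fibrillar, basement membrane and other collagen genes, 1 point per tumour, with the group mean (horizontal line) and SD (vertical line); the 3 vertical axes have different ranges and start at 0. Fibrillar sums of controls lie at 521 to 944, below all stable tumours and responders, while the basement membrane sums of the 4 groups overlap.

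Of the 44 genes, 42 passed the filter on low counts, and Col19a1 and Col22a1 did not. Over the 4 groups, 34 of the 42 differed in the F test, against 71.7% of all genes tested: 10 of 11 fibrillar, 6 of 8 basement membrane and 18 of 23 other collagens. Against controls, non-responders had 14 called collagens (13.9% of all genes were called), of which 13 were higher (10.6% of all genes) and 1 was lower (3.29%). Stable tumours had 24 called against controls (41.8% of all genes), 16 higher (22.2%) and 8 lower (19.6%). Responders had 29 called against controls (65.0% of all genes), 18 higher (36.1%) and 11 lower (28.9%). The 3 comparisons share the same 5 controls. The median log2 fold change of the 42 genes was 0.51 for non-responders, 0.39 for stable tumours and 0.67 for responders, beside 0.04, 0.02 and 0.16 over all genes tested. For fibrillar collagens alone it was 0.90, 0.81 and 1.09, and for basement membrane collagens 0.21, -0.28 and -0.33. The 14 calls in non-responders fell to 9 when control 1 was left out. With the 7 responders of low protein-coding share left out, which leaves responder 5 alone, 8 of the 29 calls against controls remained.

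Among the treated tumours, responders differed from non-responders in 17 collagens (48.9% of all genes were called), 7 higher (25.2%) and 10 lower (23.8%). None of the 4 fibrillar calls was lower and none of the 3 basement membrane calls was higher. Responders differed from stable tumours in 13 collagens (38.2% of all genes), 8 higher (20.5%) and 5 lower (17.8%). Stable tumours differed from non-responders in 9 (14.9% of all genes), 3 higher (7.08%) and 6 lower (7.86%). With protein-coding share as a covariate the 17 responder to non-responder calls became 8, and with its log2 10. The 13 responder to stable calls became 0 under either covariate in edgeR, where 4 and 7 genes had an unadjusted p under 0.05; DESeq2 without a covariate called 13. Among the responder to non-responder calls lost with the share as a covariate were Col5a3, Col27a1, Col8a2, Col10a1, Col14a1 and Col25a1. The 9 calls between stable tumours and non-responders, whose protein-coding shares overlapped and whose mitochondrial rRNA shares did not, became 5 when the 2 groups were fitted alone. With responder 5 as the only responder, 4 called differences from stable tumours changed sign without passing the threshold, those of Col7a1 (-0.31), Col9a3 (-0.18), Col17a1 (-3.25) and Col27a1 (-0.12). Against non-responders this held for Col7a1 (-0.20), Col10a1 (0.088) and Col27a1 (-0.48).

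**Figure D2:**
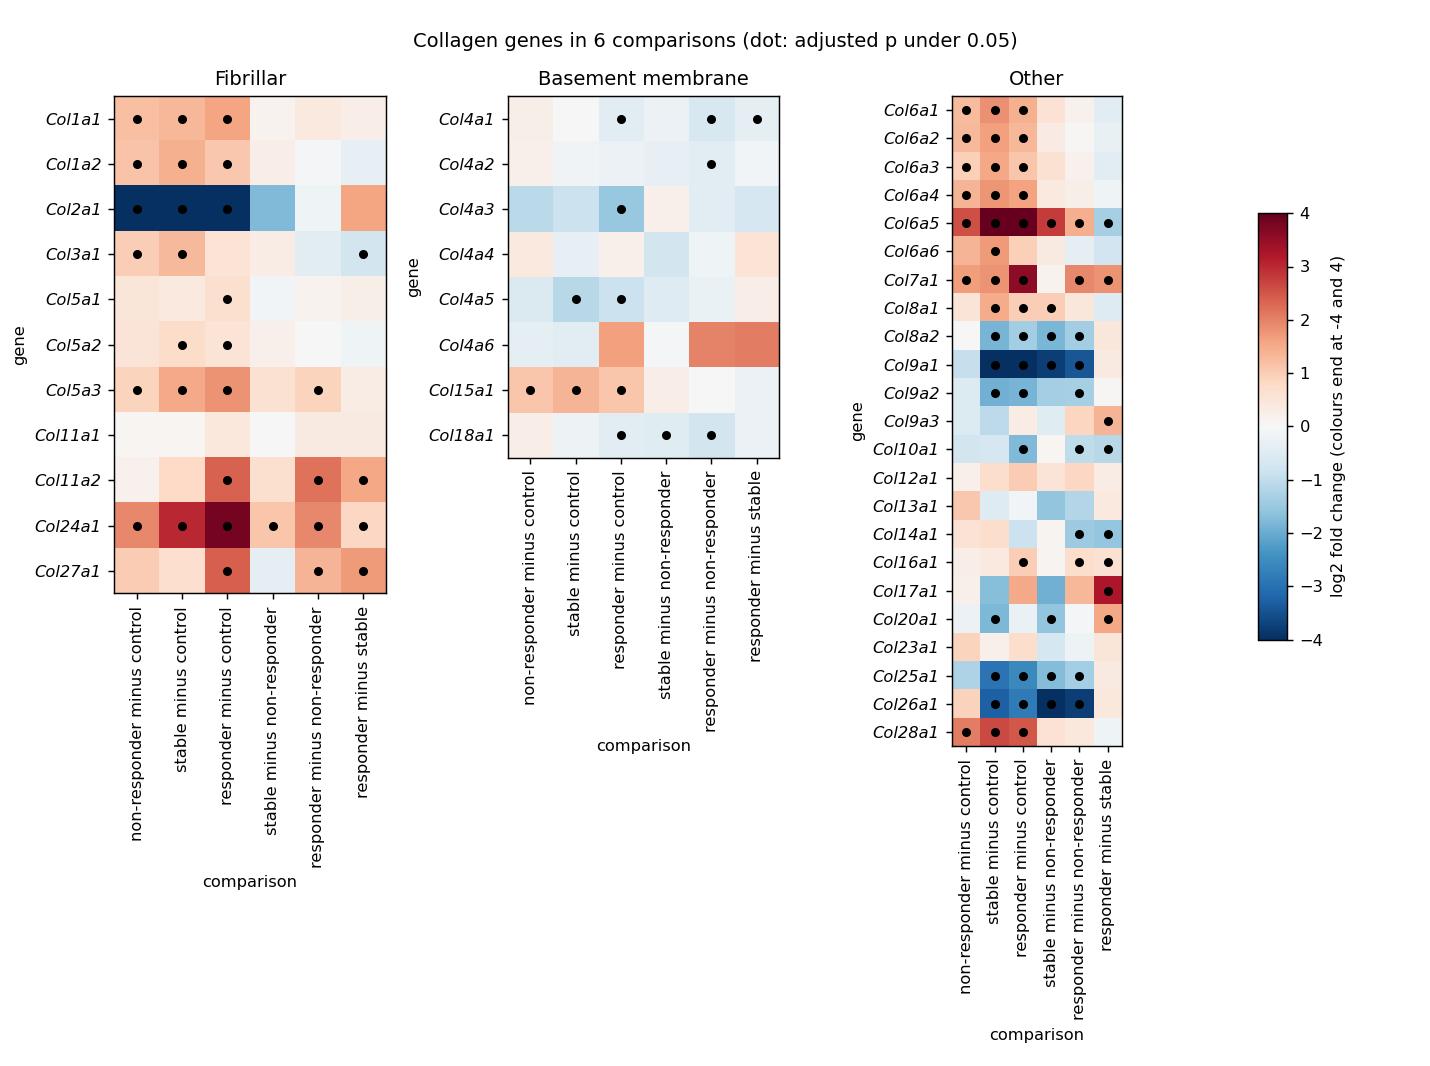
Log2 fold changes of the 42 tested collagen genes (rows, by class) in 6 comparisons (columns); red is higher and blue lower in the group named before the word minus, colours end at -4 and 4, and a dot marks an adjusted p under 0.05 (edgeR). Col1a1, Col1a2, Col6a1, Col6a2, Col6a3, Col6a4 and Col6a5 are dotted red in all 3 comparisons with controls, and Col4a1 and Col18a1 are dotted blue in responders against controls and against non-responders.

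Type I collagen, the main protein of connective tissue fibres, is a trimer of 2 chains from Col1a1 (chromosome 11, 94936224 to 94953042, GRCm38) and 1 from Col1a2 (chromosome 6, 4504814 to 4541544). Col1a1 read 514, 1266, 1482, 1051 and 1565 scaled CPM in controls 1 to 5. Non-responders read 1038 to 4389 (median 2874), stable tumours 1827 to 4505 (median 2937) and responders 1653 to 6636 (median 3298). All responders and stable tumours exceeded every control, and 2 of 6 non-responders did not. Against controls, Col1a1 was higher by 1.59 ± 0.36 (adjusted p = 0.000513) in responders, 1.33 ± 0.37 (adjusted p = 0.00524) in stable tumours and 1.198 ± 0.37 (adjusted p = 0.0305) in non-responders. The call in non-responders was weak, since leaving out non-responder 2, 4 or 5 or control 1, 2 or 4 ended it (adjusted p = 0.0515 to 0.0977), and limma on log2(RPKM + 1) gave 1.17 (adjusted p = 0.0688). With responder 5 as the only responder the difference from controls was 0.45 (adjusted p = 0.666). Col1a2 stood at 709.7, 1108, 1227, 890.1 and 1575 scaled CPM in controls 1 to 5. Non-responders read 1442 to 3423 (median 2464), stable tumours 1914 to 3649 (median 3006) and responders 1692 to 3948 (median 2171). Responders and stable tumours again did not overlap with controls. Col1a2 rose by 1.41 ± 0.27 (adjusted p = 0.000163) in stable tumours, 1.13 ± 0.27 (adjusted p = 0.00546) in non-responders and 1.09 ± 0.25 (adjusted p = 0.000675) in responders. Neither chain differed between any 2 treated groups by the test: Col1a1 differed by 0.39 ± 0.32 between responders and non-responders and Col1a2 had a difference of -0.04 ± 0.23.

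The start of Col1a2 is shown because it is the type I chain with a promoter in the RefSeq table used here, which covers 35 of the 44 collagen genes with 38 windows on GRCm38.p6, each from 250 bases before to 50 after a gene's start. The window lies at chr6:4505368-4505667 on the plus strand. The start in this table differs from the GENCODE M21 gene start given above, which lies before the window. Capitals mark matches to GGGCGG or CCAAT on either strand.
Col1a2: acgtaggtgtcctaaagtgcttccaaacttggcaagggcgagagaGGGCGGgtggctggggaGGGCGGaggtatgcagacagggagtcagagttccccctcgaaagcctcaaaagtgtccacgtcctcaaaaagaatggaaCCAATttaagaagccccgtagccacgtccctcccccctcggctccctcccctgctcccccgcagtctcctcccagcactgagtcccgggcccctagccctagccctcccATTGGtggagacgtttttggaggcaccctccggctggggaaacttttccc
It holds 2 matches to each of these motifs and none to TATAA. A match on either strand to GGGCGG is in 35.7% of all 32851 windows and in 23 of the 38 collagen windows, CCAAT in 37.4% and 13, and TATAA in 24.9% and 7. A match is a description of letters and not a binding site.

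Type III collagen, a trimer of Col3a1 chains (chromosome 1, 45311538 to 45349706) that mixes into type I fibres, had the highest RPKM of the collagens over equally weighted group means. In responders its mean of 430.2 ± 151 RPKM (SD, n = 8) lay below the 462 ± 210.3 of Col1a1. Col3a1 read 1827, 2082, 2259, 1848 and 2798 scaled CPM in controls 1 to 5. Non-responders read 2895 to 6605 (median 4096), stable tumours 2960.1 to 7577 (median 5042) and responders 2132 to 4915 (median 2682). Every non-responder and stable tumour was above every control, and responders overlapped with controls. Col3a1 rose by 1.298 ± 0.28 (adjusted p = 0.000598) in stable tumours and 0.99 ± 0.28 (adjusted p = 0.0177) in non-responders, and the latter call was lost in some subsets, as leaving out non-responder 4 or control 1 or 4 ended it (adjusted p = 0.0564 to 0.0594). Responders differed from controls by 0.55 ± 0.26 (adjusted p = 0.0673), which missed the threshold. Col3a1 was lower in responders than in stable tumours, at -0.75 ± 0.24 (adjusted p = 0.0192), but leaving out stable 2 or 3 ended it (adjusted p = 0.0517 to 0.0570).

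Type V collagen sits in the core of type I fibrils and sets their width. Col5a1 read 292, 461, 398, 359.5 and 476 scaled CPM in controls 1 to 5. Non-responders read 333 to 759.6 (median 611), stable tumours 403 to 638 (median 539) and responders 403 to 806 (median 614). Col5a1 was called only against controls in responders, at 0.64 ± 0.20 (adjusted p = 0.00677). Col5a2 read 968, 921, 795, 907 and 1120.4 scaled CPM in controls 1 to 5. Non-responders read 857 to 1800.3 (median 1314), stable tumours 1326 to 2009 (median 1484) and responders 1077 to 1842 (median 1304). All stable tumours lay above all controls in Col5a2, which rose by 0.72 ± 0.18 (adjusted p = 0.00252) in stable tumours and 0.55 ± 0.17 (adjusted p = 0.00770) in responders. The third chain, Col5a3, changed most. Col5a3 read 76.3, 115, 97.4, 74.9 and 118 scaled CPM in controls 1 to 5. Non-responders read 99.3 to 271 (median 170.2), stable tumours 164 to 414 (median 266) and responders 232 to 422 (median 321). No stable tumour or responder overlapped with a control. Col5a3 rose by 1.79 ± 0.25 (adjusted p = 2.47e-06) in responders, 1.502 ± 0.26 (adjusted p = 4.81e-05) in stable tumours and 0.90 ± 0.25 (adjusted p = 0.0174) in non-responders. For the call in non-responders, leaving out non-responder 4 or 5 or control 1 or 4 ended it (adjusted p = 0.0525 to 0.0609). Responders also exceeded non-responders, by 0.89 ± 0.22 (adjusted p = 0.00282), but with protein-coding share as a covariate the difference was 0.62 (adjusted p = 0.134). On the RPKM scale Col5a3 went from 0.308 ± 0.0269 of Col5a1 among controls to 0.414 ± 0.105 among non-responders, 0.659 ± 0.156 among stable tumours and 0.689 ± 0.138 among responders.

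The fibrillar genes of low level included those with the widest differences. Type XXIV and XXVII collagens are fibrillar forms known from developing bone and cartilage. Col24a1 read 0.667, 0.663, 0.626, 1.10 and 1.55 scaled CPM in controls 1 to 5. Non-responders read 0.859 to 6.17 (median 3.59), stable tumours 5.6002 to 8.82 (median 7.73) and responders 7.999 to 18.1 (median 12.5). Responders and stable tumours lay wholly above controls, and responders wholly above non-responders. Col24a1 was called in all 6 comparisons: it was higher than in controls by 3.84 ± 0.36 (adjusted p = 7.14e-08) in responders, 3.02 ± 0.35 (adjusted p = 9.94e-07) in stable tumours and 1.92 ± 0.34 (adjusted p = 0.000724) in non-responders. Between treated groups it was higher by 1.92 ± 0.30 (adjusted p = 7.56e-05) in responders than in non-responders, 1.10 ± 0.30 (adjusted p = 0.0176) in stable tumours than in non-responders and 0.81 ± 0.28 (adjusted p = 0.0281) in responders than in stable tumours. For stable against non-responder, leaving out non-responder 2 ended it (adjusted p = 0.0508), and for responder against stable, leaving out stable 5 or 6 ended it (adjusted p = 0.0582 to 0.0592). Col27a1 read 27.2, 46.9, 26.4, 25.996 and 23.8 scaled CPM in controls 1 to 5. Non-responders read 26.9 to 112 (median 55.9), stable tumours 28.6 to 74.1 (median 40.7) and responders 44.3 to 243 (median 176). The responder at the lower end, with 44.3, was responder 5, the responder library with the usual protein-coding share. Col27a1 was higher in responders by 2.38 ± 0.41 (adjusted p = 3.29e-05) against controls, 1.35 ± 0.37 (adjusted p = 0.00491) against non-responders and 1.71 ± 0.37 (adjusted p = 0.00312) against stable tumours. With protein-coding share as a covariate the difference from non-responders was 0.43 (adjusted p = 0.525).

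Type XI collagen is the cartilage counterpart of type V. Col11a2 read 1.73, 2.36, 1.41, 2.44 and 2.33 scaled CPM in controls 1 to 5. Non-responders read 1.42 to 3.17 (median 2.19), stable tumours 2.39 to 5.04 (median 3.53) and responders 3.91 to 26.998 (median 8.49). Here too the lowest responder was responder 5, and responder 1, with the lowest protein-coding share, was the highest. Col11a2 was higher in responders by 2.35 ± 0.37 (adjusted p = 1.19e-05) against controls, 2.18 ± 0.35 (adjusted p = 8.77e-05) against non-responders and 1.54 ± 0.34 (adjusted p = 0.00310) against stable tumours. Its partner Col11a1 was called in no comparison and had levels of 18.4 to 88.04 scaled CPM over the 25 tumours. Type II collagen, the main fibre of cartilage, went the other way. Col2a1 read 9.83, 2.28, 5.05, 48.7 and 84.8 scaled CPM in controls 1 to 5. Non-responders read 0.229 to 3.20 (median 1.16), stable tumours 0.0975 to 1.15 (median 0.314) and responders 0.270 to 4.62 (median 0.837). Controls 4 and 5 were far above the other 3, and the lowest control stood within the range of non-responders and responders. The log2 fold changes of Col2a1 were -6.13 ± 0.96 (adjusted p = 1.88e-05) in stable tumours, -4.54 ± 0.79 (adjusted p = 3.24e-05) in responders and -4.36 ± 0.86 (adjusted p = 0.00151) in non-responders against controls. Without control 5 these changes were -5.27, -3.70 and -3.50. The 6 cartilage markers, of which 3 passed the filter, summed to 2.97 to 15.3 scaled CPM in controls and 1.15 to 9.90 in non-responders. Stable tumours summed to 3.35 to 6.82 and responders to 2.92 to 23.4. Controls 4 and 5, the highest in Col2a1, summed to 5.31 and 5.33 there, and control 3 to 15.3. The part of cartilage RNA in the Col2a1 values was not tested.

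Type IV collagen of most basement membranes is made of 2 Col4a1 chains and 1 Col4a2 chain. The genes lie head to head on chromosome 8, with starts 21 bases apart in the RefSeq table (GRCm38.p6). Col4a1 (chromosome 8, 11198423 to 11312826) is read from the minus strand and Col4a2 (chromosome 8, 11312805 to 11449287) from the plus strand. Their windows, chr8:11312777-11313076 and chr8:11312555-11312854, are shown because they share 78 bases, marked in capitals, each read in its own gene's direction.
Col4a1: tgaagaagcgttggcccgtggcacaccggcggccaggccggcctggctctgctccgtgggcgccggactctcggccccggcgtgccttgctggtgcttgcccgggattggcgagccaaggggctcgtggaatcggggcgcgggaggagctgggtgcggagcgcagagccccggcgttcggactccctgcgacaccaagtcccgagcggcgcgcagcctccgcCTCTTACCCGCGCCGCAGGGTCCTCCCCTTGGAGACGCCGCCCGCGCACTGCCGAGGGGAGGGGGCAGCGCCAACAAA
Col4a2: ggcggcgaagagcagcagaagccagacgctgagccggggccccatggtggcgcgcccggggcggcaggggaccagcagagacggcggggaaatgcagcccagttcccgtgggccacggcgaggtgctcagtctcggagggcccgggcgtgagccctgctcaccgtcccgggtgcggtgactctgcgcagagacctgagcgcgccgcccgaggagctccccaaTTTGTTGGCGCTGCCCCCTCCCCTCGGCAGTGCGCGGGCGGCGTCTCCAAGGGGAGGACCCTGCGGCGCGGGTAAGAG
The shared stretch is 73.1% G and C and holds 1 match to GGGCGG.

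Both genes had their highest mean in non-responders. The lowest mean of Col4a1 was in responders, and that of Col4a2 was in responders by scaled CPM and in stable tumours by RPKM (105 beside 107 in responders). Col4a1 read 2204, 2297, 2261, 2039.8 and 2004 scaled CPM in controls 1 to 5. Non-responders read 1970.1 to 2988 (median 2464), stable tumours 1859 to 2469 (median 2126) and responders 1255 to 2030.1 (median 1657). Responders and controls overlapped only at the edge, through responder 5 at 2030. Col4a1 was lower in responders at -0.63 ± 0.13 (adjusted p = 0.000608) against non-responders, -0.41 ± 0.14 (adjusted p = 0.0119) against controls and -0.39 ± 0.13 (adjusted p = 0.0218) against stable tumours. The stricter filter on low counts ended the call against controls, with -0.27 (adjusted p = 0.0664), and for stable tumours leaving out stable 5 ended it (adjusted p = 0.0571). Stable tumours differed from controls at -0.01 ± 0.15, a value whose sign changed with the setting. Col4a2 read 997, 1209, 1219, 1109.7 and 949.6 scaled CPM in controls 1 to 5. Non-responders read 973 to 1626 (median 1248), stable tumours 814 to 1212 (median 986) and responders 756 to 1165 (median 940.5). The 4 groups overlapped. Col4a2 was lower in responders than in non-responders at -0.44 ± 0.14 (adjusted p = 0.0113), which limma on log2(RPKM + 1) gave as -0.37 (adjusted p = 0.0538), and was called in no other comparison. The endothelial marker list summed over 7 genes to 148 to 216 scaled CPM among controls and 156 to 312 among non-responders. Stable tumours summed to 86.6 to 157 and responders to 51.1 to 121. All 7 of its genes were called lower in responders than in non-responders, beside 23.8% of all genes. In stable tumours 5 were lower than in non-responders and 4 lower than in controls (7.86% and 19.6% of all genes). In responders 6 were lower than in controls and 4 lower than in stable tumours (28.9% and 17.8%). In non-responders 0 differed from controls, and 0 were higher in any comparison. No endothelial marker was at 0 throughout a group, and the part of endothelial content in the type IV differences was not tested.

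Type XV and type XVIII collagens are basement membrane proteins of the multiplexin family, and type XVIII is the source of endostatin. They behaved differently. Col15a1 read 185, 327, 234, 221 and 266 scaled CPM in controls 1 to 5. Non-responders read 275 to 795 (median 521), stable tumours 429 to 764 (median 629) and responders 372 to 688 (median 515). No stable tumour or responder was as low as the highest control. Col15a1 rose by 1.35 ± 0.22 (adjusted p = 3.56e-05) in stable tumours, 1.11 ± 0.21 (adjusted p = 9.51e-05) in responders and 1.10 ± 0.22 (adjusted p = 0.00172) in non-responders, and was the only basement membrane collagen called higher in any comparison. Col18a1 read 203, 240.4, 209, 188 and 196 scaled CPM in controls 1 to 5. Non-responders read 165.9 to 349.7 (median 242), stable tumours 163.2 to 218 (median 171.8) and responders 122 to 196 (median 142.98). Responders stood lowest and overlapped with each other group. Col18a1 was lower in responders at -0.73 ± 0.13 (adjusted p = 0.000267) against non-responders and -0.46 ± 0.14 (adjusted p = 0.00594) against controls. It was lower in stable tumours than in non-responders at -0.48 ± 0.14 (adjusted p = 0.0276), and here leaving out stable 2, 3 or 4 or non-responder 4 or 5 ended it (adjusted p = 0.0536 to 0.0766).

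The other type IV chains were scarce. Col4a3, Col4a4 and Col4a5 form the networks of the kidney, lung and inner ear, and Col4a5 also pairs with Col4a6. Col4a3 read 3.73, 1.51, 2.93, 1.94 and 2.173 scaled CPM in controls 1 to 5. Non-responders read 0.666 to 1.56 (median 1.21), stable tumours 0.530 to 3.01 (median 1.13) and responders 0.215 to 1.35 (median 0.865). Col4a3 was lower in responders than in controls at -1.52 ± 0.39 (adjusted p = 0.00159), with no overlap. Col4a5 read 22.8, 14.3, 16.04, 19.5 and 8.79 scaled CPM in controls 1 to 5. Non-responders read 4.77 to 17.8 (median 8.77), stable tumours 3.62 to 12.3 (median 6.92) and responders 4.76 to 18.97 (median 8.63). Col4a5 was lower than in controls at -1.11 ± 0.37 (adjusted p = 0.0191) in stable tumours and -0.85 ± 0.35 (adjusted p = 0.0348) in responders. For stable tumours, leaving out control 1 ended it (adjusted p = 0.0602), and for responders, leaving out responder 3, 5, 6 or 7 or control 1 or 4 ended it (adjusted p = 0.0527 to 0.102). Col4a4 and Col4a6 were called in no comparison.

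**Figure D3:**
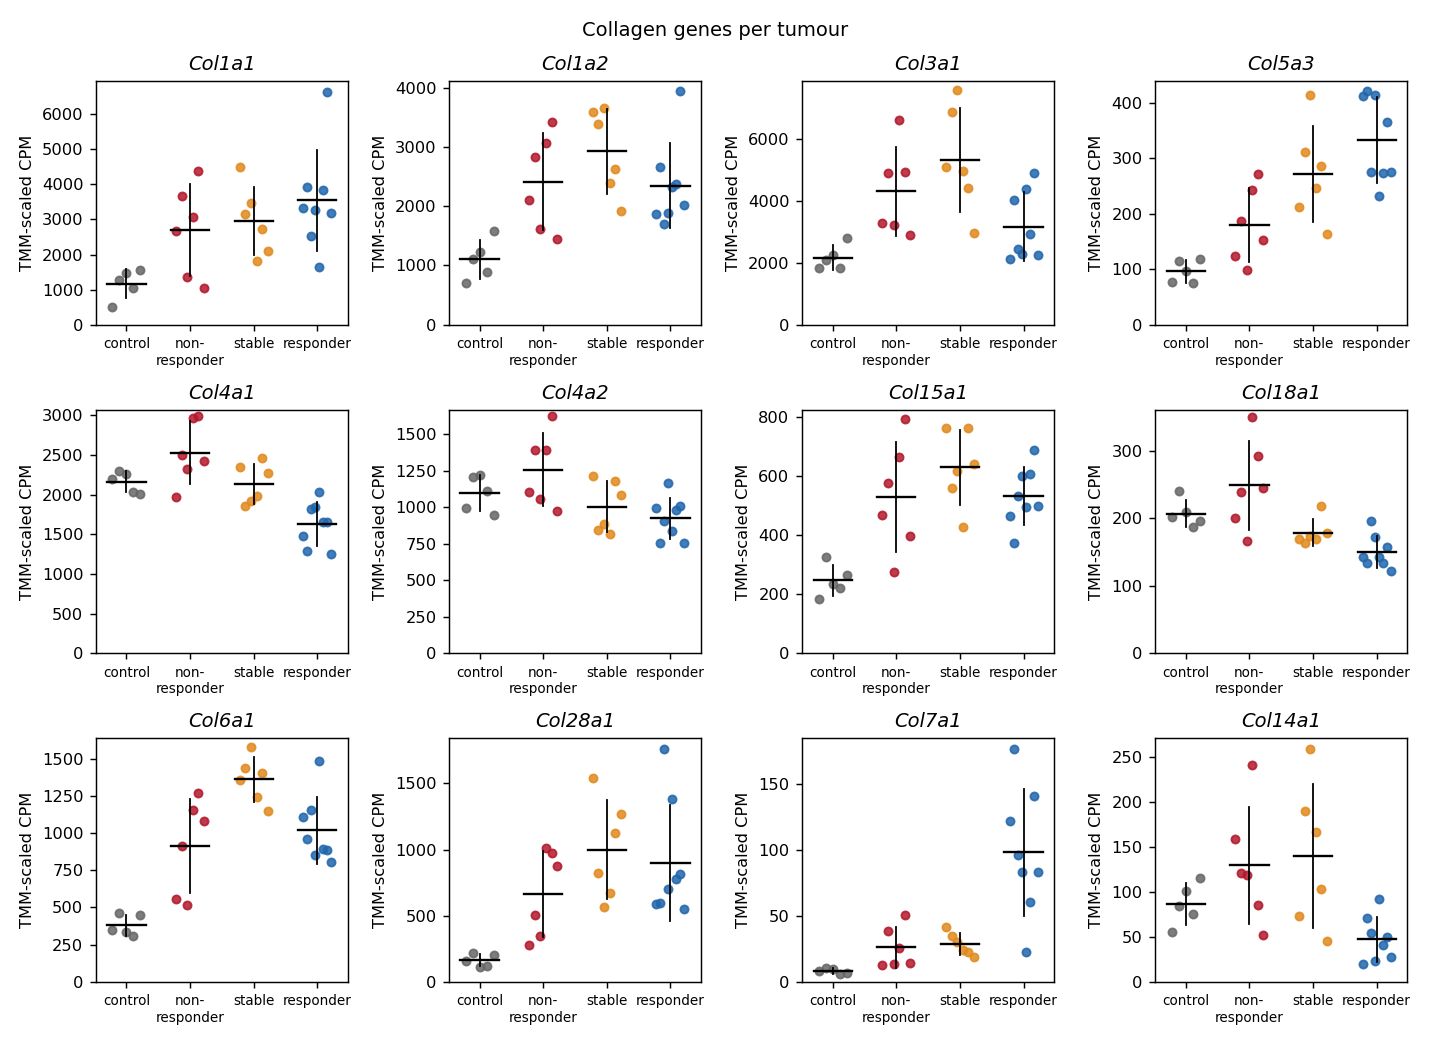
Scaled CPM of 12 collagen genes, 1 point per tumour, with the group mean (horizontal line) and SD (vertical line); each panel has its own linear axis from 0. Controls sit below all stable tumours and responders in Col1a1, Col1a2, Col5a3, Col15a1, Col6a1, Col28a1 and Col7a1, while the responder means are lowest in Col4a1, Col4a2, Col18a1 and Col14a1.

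Type VI collagen makes beaded filaments around cells and is built mainly from Col6a1, Col6a2 and Col6a3. Col6a1 read 349.9, 463, 333, 308 and 447 scaled CPM in controls 1 to 5. Non-responders read 515 to 1267 (median 997), stable tumours 1148 to 1576 (median 1379) and responders 808 to 1486 (median 926). No treated tumour overlapped with a control. Col6a1 rose by 1.84 ± 0.22 (adjusted p = 1.21e-06) in stable tumours, 1.42 ± 0.21 (adjusted p = 4.57e-06) in responders and 1.27 ± 0.22 (adjusted p = 0.000604) in non-responders. Col6a2 read 170.3, 294, 219, 189.7 and 289 scaled CPM in controls 1 to 5. Non-responders read 314 to 904 (median 560.3), stable tumours 533 to 891 (median 757) and responders 409 to 745 (median 579.8). Again every treated tumour was above every control. Col6a2 rose by 1.64 ± 0.23, 1.34 ± 0.22 and 1.297 ± 0.23 in the same order, with adjusted p of 6.61e-06, 1.88e-05 and 0.000723. Col6a3 read 344, 696, 487, 411 and 565 scaled CPM in controls 1 to 5. Non-responders read 537 to 1342 (median 974), stable tumours 989.9 to 1749 (median 1512) and responders 696 to 1540.4 (median 978). The lowest non-responders fell within the control range. Col6a3 rose by 1.55 ± 0.26 (adjusted p = 3.87e-05) in stable tumours, 1.11 ± 0.24 (adjusted p = 0.000402) in responders and 0.95 ± 0.25 (adjusted p = 0.0138) in non-responders. None of these 3 chains was called between 2 treated groups. On the RPKM scale Col6a1 was 1.71 ± 0.219 times Col6a2 in controls and 1.83 ± 0.448 times in responders, within the spread.

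The alternative type VI chains, which can stand in for Col6a3, were rare. Col6a5 read 0.09999, 0.442, 0.352, 0.192 and 1.09 scaled CPM in controls 1 to 5. Non-responders read 0.645 to 6.15 (median 2.15), stable tumours 4.74 to 34.3 (median 12.2) and responders 2.90 to 11.9 (median 6.26). It was the collagen with the largest rise in stable tumours, where it was higher than in controls by 5.37 ± 0.72 (adjusted p = 3.24e-06). In responders it was higher by 4.03 ± 0.67 (adjusted p = 1.88e-05) and in non-responders by 2.58 ± 0.65 (adjusted p = 0.00943). Without control 5 these 3 differences were 5.99, 4.64 and 3.19. Stable tumours also exceeded non-responders, by 2.79 ± 0.57 (adjusted p = 0.00405), and responders stood between them. Responders were 1.46 ± 0.53 (adjusted p = 0.0265) above non-responders, where leaving out non-responder 2, 3 or 5 ended it (adjusted p = 0.0510 to 0.0632). They were below stable tumours at -1.34 ± 0.50 (adjusted p = 0.0376), where leaving out responder 1, 4, 7 or 8 or stable 2 or 3 ended it (adjusted p = 0.0642 to 0.124). Col6a4 read 0.367, 0.405, 0.391, 0.274 and 1.19 scaled CPM in controls 1 to 5. Non-responders read 0.475 to 2.06 (median 1.498), stable tumours 1.12 to 2.175 (median 1.86) and responders 0.951 to 2.27 (median 1.56). Control 5 was the highest control, within the treated range. Col6a4 rose by 1.77 ± 0.41 (adjusted p = 0.00116), 1.61 ± 0.40 (adjusted p = 0.00115) and 1.37 ± 0.41 (adjusted p = 0.0246) in stable tumours, responders and non-responders. For the last of these, leaving out non-responder 4 or 6 or control 1, 2, 3 or 4 ended it (adjusted p = 0.0586 to 0.0853). Col6a6 read 0.400, 1.55, 4.42, 2.96 and 3.93 scaled CPM in controls 1 to 5. Non-responders read 2.06 to 13.7 (median 6.19), stable tumours 4.04 to 12.2 (median 8.79) and responders 1.23 to 11.3 (median 4.41). Col6a6 was called only in stable tumours against controls, at 1.70 ± 0.56 (adjusted p = 0.0171), with overlapping groups.

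Type XXVIII collagen resembles type VI in its domains and is known from peripheral nerve. Col28a1 (chromosome 6, 7997808 to 8192617) ranked 7 among the 43 collagens by RPKM. Col28a1 read 154.9, 214, 115, 119 and 201 scaled CPM in controls 1 to 5. Non-responders read 280.1 to 1014 (median 689), stable tumours 568.5 to 1538 (median 974) and responders 549 to 1762 (median 741). Every treated tumour exceeded every control. Col28a1 rose by 2.64 ± 0.39 (adjusted p = 1.02e-05) in stable tumours, 2.48 ± 0.38 (adjusted p = 6.73e-06) in responders and 2.05 ± 0.38 (adjusted p = 0.000936) in non-responders, and was called between no 2 treated groups. Schwann cell markers, which are background to that tissue, share Sox10 with the melanocytic markers. They summed over 6 genes to 820.0 to 1042 scaled CPM among controls and 836 to 947 among non-responders. Stable tumours summed to 439.6 to 802 and responders to 354 to 845. Against controls, 2 were called higher and 3 lower in responders (36.1% and 28.9% of all genes). In stable tumours 1 was higher and 2 lower (22.2% and 19.6%), and in non-responders 0 were called. The part of Schwann cell content in the Col28a1 values was not tested.

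Type VII collagen forms the anchoring fibrils that fasten skin epithelium to the dermis. Col7a1 read 8.37, 10.2, 9.86, 5.94 and 6.36 scaled CPM in controls 1 to 5. Non-responders read 12.8 to 51.0 (median 20.2), stable tumours 18.6 to 41.7 (median 26.999) and responders 22.9 to 176 (median 89.7). All treated tumours were above all controls, and responder 5, at 22.9, was the lowest responder. Col7a1 rose by 3.59 ± 0.43 (adjusted p = 5.15e-07) in responders, 1.81 ± 0.41 (adjusted p = 0.00100) in stable tumours and 1.68 ± 0.41 (adjusted p = 0.00739) in non-responders. Responders exceeded non-responders by 1.91 ± 0.37 (adjusted p = 0.000394) and stable tumours by 1.78 ± 0.37 (adjusted p = 0.00240). With only responder 5 kept, the difference from controls was 1.45 (adjusted p = 0.0876), and that from non-responders -0.20. Type XVII collagen, a membrane protein of skin hemidesmosomes, was dominated by single tumours. Col17a1 read 1.67, 9.54, 47.4, 3.73 and 1.45 scaled CPM in controls 1 to 5. Non-responders read 0.445 to 50.03 (median 3.87), stable tumours 1.43 to 6.34 (median 3.89) and responders 0.404 to 206 (median 13.6). Responder 8 was far above the other responders, and control 3 above the other controls. Col17a1 was higher in responders than in stable tumours by 3.24 ± 1.27 (adjusted p = 0.0481), but leaving out responder 1, 4, 6, 7 or 8 or stable 1, 2, 3, 4, 5 or 6 ended it (adjusted p = 0.0516 to 0.245), and without responder 8 it was 1.65. The summed level of 6 keratinocyte markers was 1447 in responder 8 and 569 in control 3, the highest of their groups. Its group ranges were 8.43 to 569 scaled CPM among controls, 4.74 to 348 among non-responders, 8.59 to 139.1 among stable tumours and 0.539 to 1447 among responders, and none of the 6 genes was called in any comparison. The part of keratinocyte RNA in these values was not tested.

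Type VIII and type X collagens form short-chain networks. Col8a1 read 121, 102, 131, 93.0 and 162.5 scaled CPM in controls 1 to 5. Non-responders read 140.4 to 213 (median 177), stable tumours 237 to 420.1 (median 354) and responders 104 to 429.7 (median 168.2). Stable tumours had the highest median and overlapped neither with controls nor with non-responders. Responders 2, 3 and 5 read 342, 429.7 and 421.8 scaled CPM, and the remaining responders 104 to 171, beside 162.5 in the highest control. Col8a1 was higher than in controls by 1.49 ± 0.32 (adjusted p = 0.000513) in stable tumours and 0.97 ± 0.30 (adjusted p = 0.00622) in responders. Between stable tumours and non-responders it was higher in the former by 0.97 ± 0.29 (adjusted p = 0.0285), and leaving out stable 3, 4 or 5 or non-responder 1, 2 or 3 ended it (adjusted p = 0.0504 to 0.0702). Its partner Col8a2 went the opposite way. Col8a2 read 6.40, 4.24, 12.4, 4.36 and 11.3 scaled CPM in controls 1 to 5. Non-responders read 1.11 to 14.95 (median 6.65), stable tumours 1.12 to 3.07 (median 2.04) and responders 1.26 to 6.66 (median 2.43). It was lower in stable tumours at -1.84 ± 0.47 (adjusted p = 0.00288) against controls and -1.83 ± 0.46 (adjusted p = 0.0111) against non-responders. In responders it was lower at -1.40 ± 0.44 (adjusted p = 0.00726) and -1.38 ± 0.42 (adjusted p = 0.00975) in the same comparisons. Col10a1 was at 41.6, 29.2, 35.7, 60.4 and 61.4 scaled CPM in controls 1 to 5. Non-responders read 21.04 to 33.9 (median 26.9), stable tumours 14.4 to 39.4 (median 30.6) and responders 6.17 to 29.3 (median 11.999). Type X collagen is known from hypertrophic cartilage. Responder 5, at 29.3, was the highest responder by a wide margin. Col10a1 was lower in responders at -1.76 ± 0.28 (adjusted p = 1.19e-05) against controls, -1.09 ± 0.27 (adjusted p = 0.00522) against stable tumours and -1.02 ± 0.27 (adjusted p = 0.00400) against non-responders. With protein-coding share as a covariate the difference from non-responders was -0.62 (adjusted p = 0.178).

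Fibril-associated collagens sit on the surface of other fibrils. Among them Col14a1 was lower and Col16a1 higher in responders than in both other treated groups. Col14a1 read 55.2, 84.5, 101, 75.9 and 115 scaled CPM in controls 1 to 5. Non-responders read 51.6 to 241 (median 120.4), stable tumours 45.7 to 259.7 (median 135) and responders 20.1 to 91.8 (median 45.4). Groups overlapped, with responders at the low end. Col14a1 was lower in responders at -1.56 ± 0.38 (adjusted p = 0.00486) against stable tumours and -1.45 ± 0.37 (adjusted p = 0.00357) against non-responders. With protein-coding share as a covariate the latter was -0.76 (adjusted p = 0.227). Col16a1 read 260.0, 299.9, 257, 206 and 286 scaled CPM in controls 1 to 5. Non-responders read 198 to 386 (median 339), stable tumours 272 to 417 (median 330.3) and responders 371 to 775 (median 445). Every responder exceeded every control. Col16a1 was higher in responders by 0.99 ± 0.19 (adjusted p = 0.000110) against controls, 0.72 ± 0.18 (adjusted p = 0.00274) against non-responders and 0.62 ± 0.18 (adjusted p = 0.0115) against stable tumours. Col12a1 was called in no comparison, and responders 2, 3 and 5, at 1177, 904 and 370.0 scaled CPM, lay above the other 5 responders, at 95.7 to 145. Col20a1 read 30.2, 66.2, 29.1, 22.2 and 33.8 scaled CPM in controls 1 to 5. Non-responders read 12.5 to 60.4 (median 27.1), stable tumours 6.24 to 16.9 (median 8.11) and responders 15.9 to 70.2 (median 25.1). Stable tumours were lowest and did not overlap with controls. Col20a1 was lower in stable tumours at -1.81 ± 0.41 (adjusted p = 0.000963) against controls and -1.58 ± 0.40 (adjusted p = 0.0108) against non-responders. It was higher in responders than in stable tumours by 1.54 ± 0.38 (adjusted p = 0.00533).

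Several scarce collagens were called lower in stable tumours or responders than in controls. Type IX collagen is a cartilage collagen. Col9a3 read 2.10, 2.62, 1.49, 2.88 and 4.71 scaled CPM in controls 1 to 5. Non-responders read 0.821 to 4.22 (median 1.27), stable tumours 1.01 to 1.95 (median 1.203) and responders 1.17 to 8.48 (median 2.98). Col9a3 was called once, at 1.35 ± 0.43 (adjusted p = 0.0176) in responders against stable tumours. Col9a1 and Col9a2, both under 1 scaled CPM on average, were called lower in stable tumours and responders against controls and in responders against non-responders. A type IX gene of this low level was also among the 5 collagens of other kinds called lower in stable tumours than in non-responders. Col25a1 read 2.57, 3.09, 2.66, 9.83 and 12.5 scaled CPM in controls 1 to 5. Non-responders read 0.573 to 7.06 (median 1.99), stable tumours 0.341 to 1.18 (median 0.823) and responders 0.446 to 1.45 (median 0.957). Type XXV is a transmembrane collagen known from neurons. Controls 4 and 5 were the highest, as for Col2a1. Col25a1 was lower in stable tumours at -2.95 ± 0.53 (adjusted p = 9.43e-05) against controls and -1.73 ± 0.51 (adjusted p = 0.0250) against non-responders. In responders it was lower at -2.59 ± 0.48 (adjusted p = 7.19e-05) against controls and -1.37 ± 0.47 (adjusted p = 0.0194) against non-responders. For stable against non-responder, leaving out stable 2 or 3 or non-responder 1 or 2 ended it (adjusted p = 0.0533 to 0.104), and for responder against non-responder, leaving out non-responder 1 ended it (adjusted p = 0.129). Col26a1, below 1 scaled CPM on average, was called lower in stable tumours and responders against controls and against non-responders. The transmembrane collagens Col13a1 and Col23a1 were called in no comparison. The 2 untested genes, Col19a1 and Col22a1, reached at most 0.589 and 0.730 scaled CPM in any tumour.

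Responder 5 lay apart from the other responders in the RPKM ratios of Col1a1 to Col1a2, Col3a1 to Col1a1 and Col4a1 to Col4a2, described below. It also lay apart in Col5a2 to Col5a1, at 4.65 beside 1.91 to 3.25 in the other responders. In Col1a1 to Col4a1 it had 0.887, and the other responders 1.55 to 4.40. In Col5a3 to Col5a1, at 0.723, and Col6a1 to Col6a2, at 2.05, it lay within their range. Col1a1 to Col1a2, on the RPKM scale, was 0.910 ± 0.173 among controls, 0.936 ± 0.221 among non-responders, 0.884 ± 0.149 among stable tumours and 1.34 ± 0.305 among responders. Responder 5, at 0.623, was the lowest of all 25 tumours. Col3a1 to Col1a1 was 2.22 ± 0.929, 1.97 ± 0.741, 1.9995 ± 0.636 and 1.09 ± 0.711 in the same order. Responder 5 had 2.82, within the range of the other groups, and the 7 others lay between 0.701 and 1.07, below every tumour of the other groups. Col4a1 to Col4a2 was 1.99 ± 0.170, 2.06 ± 0.279, 2.16 ± 0.164 and 1.79 ± 0.303, and responder 5 had 2.44. The 7 responders that stood apart from all other tumours in Col1a1 to Col1a2 and Col3a1 to Col1a1 are the 7 with a low protein-coding share. That share and response cannot be told apart in them.

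**Figure D4:**
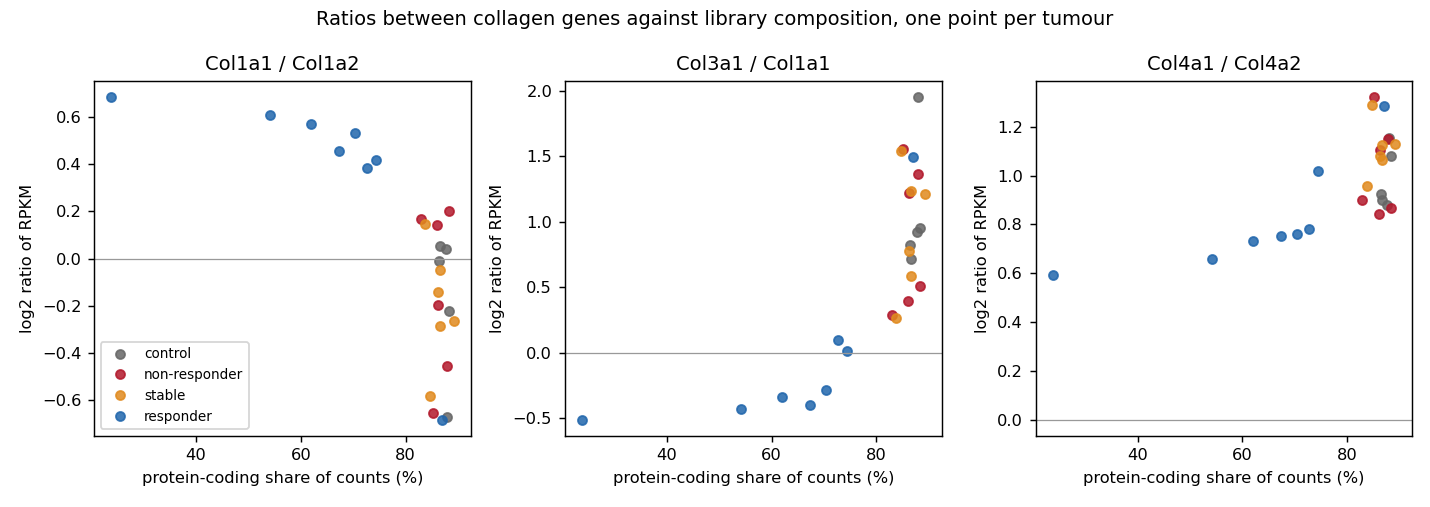
Log2 ratios of RPKM between chains of type I, III and IV collagen (vertical axes) against the protein-coding share of each library's counts in percent (horizontal axis), 1 point per tumour. The 7 responders at or below 74.3% stand apart from the other 18 tumours in Col1a1 to Col1a2 and Col3a1 to Col1a1, and responder 5, at 87.0%, lies with the other groups' range or at its edge.

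Genes that serve collagen were counted from 6 lists. The first holds 20 enzymes and chaperones that modify and fold the chains. In responders 10 of them were lower and 3 higher than in non-responders, beside 23.8% and 25.2% of all genes. Against stable tumours 9 were lower and 0 higher (17.8% and 20.5% of all genes), and against controls 10 were lower and 4 higher (28.9% and 36.1%). Serpinh1 (HSP47), the collagen chaperone, was lower in responders at -1.04 ± 0.18 (adjusted p = 0.000141) against non-responders and -0.66 ± 0.18 (adjusted p = 0.00783) against stable tumours. Ppib, a prolyl isomerase, was lower at -1.002 ± 0.20 (adjusted p = 0.000458) and -0.74 ± 0.20 (adjusted p = 0.00773) in the same comparisons. With protein-coding share as a covariate none of the 9 calls against stable tumours was left. With responder 5 as the only responder, the differences from stable tumours changed sign, to 0.10 for Serpinh1 and 0.25 for Ppib, and those from non-responders were -0.30 and -0.03; none passed the threshold. The lysyl hydroxylases Plod1 and Plod2 were lower than in controls in responders (-1.32 ± 0.17 and -1.45 ± 0.26, adjusted p = 1.19e-06 and 3.78e-05) and in stable tumours (-0.98 ± 0.19 and -1.44 ± 0.28, adjusted p = 0.000153 and 0.000183). Stable tumours had 5 of the list higher and 4 lower than controls, near the 22.2% and 19.6% of all genes. They had 2 higher and 1 lower than non-responders (7.08% and 7.86% of all genes). Non-responders had 1 higher and 1 lower than controls (10.6% and 3.29%). Prolyl 3-hydroxylase P3h2 was higher in stable tumours by 1.08 ± 0.15 (adjusted p = 5.32e-06) against controls and 0.95 ± 0.14 (adjusted p = 0.000911) against non-responders. Tmem38b, a potassium channel of the endoplasmic reticulum, was higher than in controls by 1.31 ± 0.16 (adjusted p = 6.18e-07) in responders and 1.03 ± 0.17 (adjusted p = 2.73e-05) in stable tumours.

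Of 12 tested genes that trim and cross-link procollagen, 6 were higher and 1 lower than in controls in both stable tumours and responders, and 2 were higher and 0 lower in non-responders. Over all genes 22.2% were higher and 19.6% lower in stable tumours, 36.1% and 28.9% in responders, and 10.6% and 3.29% in non-responders. The lysyl oxidase Loxl1 rose by 1.59 ± 0.27 (adjusted p = 4.64e-05) in stable tumours, 1.10 ± 0.27 (adjusted p = 0.00708) in non-responders and 0.85 ± 0.25 (adjusted p = 0.00509) in responders. Pcolce, which speeds the trimming of the C-terminal propeptide, was lower at -1.29 ± 0.18 (adjusted p = 3.19e-06) in responders and -0.71 ± 0.20 (adjusted p = 0.00552) in stable tumours against controls. Responders had 3 of the 12 higher, near the 25.2% of all genes, and 1 lower (23.8%) than non-responders. Against stable tumours they had 2 higher and 5 lower (20.5% and 17.8% of all genes). Stable tumours had 2 higher and 0 lower than non-responders (7.08% and 7.86%).

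Among 12 matrix genes that decorate fibrils, 7 were higher and 0 lower in stable tumours than in controls, beside 22.2% and 19.6% of all genes. Responders had 2 higher and 1 lower than controls (36.1% and 28.9% of all genes), and non-responders 1 higher and 0 lower (10.6% and 3.29%). Dpt (dermatopontin) was higher by 2.46 ± 0.53 (adjusted p = 0.000560) and Postn (periostin) by 1.497 ± 0.42 (adjusted p = 0.00608) in stable tumours. In responders 6 of the 12 were lower than in stable tumours and 3 lower than in non-responders, with 0 higher in either, beside 17.8% and 23.8% of all genes lower in these comparisons. The proteoglycan Lum was lower in responders at -1.61 ± 0.39 (adjusted p = 0.00221) against non-responders and -1.47 ± 0.39 (adjusted p = 0.00764) against stable tumours, and Ogn at -2.19 ± 0.56 (adjusted p = 0.00617) against stable tumours. Without responder 5 the Ogn value was -3.20, and with protein-coding share as a covariate neither Lum nor Ogn was called against stable tumours. Stable tumours had 1 higher and 0 lower than non-responders (7.08% and 7.86% of all genes). The fibroblast marker list shares Dcn, Dpt and Lum with these 12, and Fap with the enzymes of collagen breakdown described below. Over its 8 genes the list summed to 289.9 to 406 scaled CPM among controls and 534 to 1228 among non-responders. Stable tumours summed to 652 to 1359.6 and responders to 151.5 to 959. Of its 8 genes, 6 were called higher in stable tumours than in controls (22.2% of all genes) and 2 in non-responders (10.6%). In responders 3 were higher than in controls, near the 36.1% of all genes, and none was lower than in controls in any group. Responders had 3 lower than stable tumours (17.8% of all genes) and 1 lower than non-responders (23.8%). No fibroblast marker was at 0 throughout a group, and the part of fibroblast content in the collagen differences was not tested.

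Of 16 laminins, nidogens and other partners in basement membranes, 8 were lower and 1 higher in responders than in non-responders, beside 23.8% and 25.2% of all genes. Against stable tumours 4 were lower and 3 higher, near the 17.8% and 20.5% of all genes, and against controls 4 were lower and 3 higher (28.9% and 36.1%). Nid1, which links laminin to type IV collagen, was lower in responders at -0.88 ± 0.23 (adjusted p = 0.00370) against non-responders and -1.01 ± 0.23 (adjusted p = 0.00370) against stable tumours. The laminin chain Lamc3 was lower at -2.75 ± 0.64 (adjusted p = 0.00162) against non-responders. Lama1, another laminin chain, was higher than in controls by 3.32 ± 0.61 (adjusted p = 5.75e-05) in responders and 3.20 ± 0.62 (adjusted p = 0.000188) in stable tumours. Against controls, stable tumours had 3 higher and 0 lower, where 22.2% and 19.6% of all genes were called. Non-responders had 2 higher, near the 10.6% of all genes, and 0 lower (3.29%) than controls. Stable tumours had 0 higher and 1 lower than non-responders (7.08% and 7.86%).

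Among 10 tested collagen receptors, 5 were higher and 2 lower in stable tumours than in controls, beside 22.2% and 19.6% of all genes. Responders had 3 higher and 3 lower than controls, near the 36.1% and 28.9% of all genes, and non-responders 2 higher and 0 lower (10.6% and 3.29%). Lair1, an inhibitory receptor of leukocytes, rose by 2.43 ± 0.34 (adjusted p = 6.12e-06) in stable tumours, 1.84 ± 0.32 (adjusted p = 3.75e-05) in responders and 1.60 ± 0.33 (adjusted p = 0.00209) in non-responders. The summed level of 6 leukocyte markers was 135 to 245 scaled CPM among controls, 221 to 901 among non-responders, 806 to 1322 among stable tumours and 529.9 to 1099.7 among responders, and the part of leukocyte content in the Lair1 values was not tested. Mrc2, which takes up collagen fragments, rose by 1.65 ± 0.22 (adjusted p = 3.61e-06), 1.09 ± 0.21 (adjusted p = 9.94e-05) and 1.01 ± 0.22 (adjusted p = 0.00277) in the same order. Itga10, an integrin chain that binds collagen, was higher in responders by 2.16 ± 0.30 (adjusted p = 2.63e-06) against controls, 1.29 ± 0.27 (adjusted p = 0.000766) against non-responders and 0.86 ± 0.27 (adjusted p = 0.0162) against stable tumours. With responder 5 as the only responder, the last of these was -0.082. Itga11, another, was higher in stable tumours than in controls by 2.07 ± 0.45 (adjusted p = 0.000632), and lower in responders than in stable tumours at -1.46 ± 0.38 (adjusted p = 0.00682). Responders had 1 receptor higher and 2 lower than non-responders (25.2% and 23.8% of all genes). Against stable tumours they had 1 higher and 3 lower (20.5% and 17.8%). Stable tumours had 2 receptors higher and 1 lower than non-responders (7.08% and 7.86%).

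Of 7 enzymes of collagen breakdown, 6 were higher than in controls in stable tumours (22.2% of all genes), 5 in responders (36.1%) and 1 in non-responders, near the 10.6% of all genes, and 0 were lower. The collagenase Mmp13 was higher by 4.20 ± 0.72 (adjusted p = 5.30e-05) in stable tumours and 3.98 ± 0.70 (adjusted p = 3.77e-05) in responders, or 3.24 in responders without responder 2. It was also higher than in non-responders, by 2.52 ± 0.61 (adjusted p = 0.00897) in stable tumours and 2.29 ± 0.59 (adjusted p = 0.00326) in responders, or 1.55 in responders without responder 2. Ctsk, the collagen-degrading cathepsin, rose by 2.08 ± 0.38 (adjusted p = 0.000122) in stable tumours and was lower in responders than in stable tumours at -1.16 ± 0.32 (adjusted p = 0.00968). With responder 5 as the only responder the latter was 0.041. The gelatinase Mmp2 was lower in responders than in stable tumours at -0.97 ± 0.18 (adjusted p = 0.00181). Responders had 3 of the 7 lower and 0 higher than stable tumours (17.8% and 20.5% of all genes). Against non-responders they had 1 higher and 0 lower (25.2% and 23.8%). Stable tumours had 2 of the 7 higher and 0 lower than non-responders (7.08% and 7.86%). Over the 6 lists, 77 tested genes gave 33 calls between responders and non-responders, where 48.9% of all genes were called, and 36 between responders and stable tumours, where 38.2% were. With protein-coding share as a covariate these became 9 and 0. Non-responders against controls gave 10 calls (13.9% of all genes). Leaving out non-responder 4 or control 4 gave 4, leaving out non-responder 5 or control 1 gave 5, and leaving out non-responder 3 gave 17. Stable tumours against non-responders gave 12 (14.9% of all genes), which became 6 without stable 3 or non-responder 1 or 2, 7 without stable 2 or non-responder 3, and 20 without non-responder 6.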

How the data were processed

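RNA of 25 tumours was sequenced from libraries made with a stranded total RNA kit per the labels' protocols, whereas the molecule field reads polyA RNA, which was not resolved. The submitters' processing notes name bcl2fastq 2.17, Trimmomatic, STAR 2.5.1, RSEM 1.2.22 and mm10, with no role or order. The authors deposited estimated counts (expected counts) per gene, not normalized, for 55450 genes, of which 5.64% of values were not whole; all identifiers are in GENCODE M21 (GRCm38), the source of the coordinates. The authors also deposited RPKM for 19522 symbols, which include 43 of the 44 collagens; the lengths and denominators behind them are not given in sources used here.

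Counts were rounded (the planned design had taken them to be whole) and fitted with edgeR 4.0.16 in R 4.3.3 (filterByExpr by group, TMM, 4 group means over all 25 tumours, robust glmQLFit and glmQLFTest) with Benjamini-Hochberg adjustment over the 18032 genes tested and a threshold of 0.05. Pairwise tests are of group against group, and 4-group differences come from an F test; class sums are descriptions without a test. The fit was tested on simulated counts. Scaled CPM are counts per M after TMM. Alternatives were other size factors, other filters, protein-coding genes only, protein-coding share as a covariate, only the groups compared, DESeq2 1.42.0, limma 3.58.1 on log2(RPKM + 1) or log2(RPKM + 0.1), and each tumour left out in turn. A further alternative for collagens kept the main fit and required called genes to have an estimate of at least 2-fold. Log2 share as a covariate, leaving out 2 or 7 responders of low share, and all alternatives for pathway genes were added after seeing the data. Differences between libraries of the same group were all larger than counting error.

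Named with values were collagens called at least once with a mean of at least 1 CPM. Fold changes of up to 6 called genes per class and comparison and of 6 fixed genes were followed through the alternatives. Fold changes of further called collagens are from the main fit only. Pathway genes were named from up to 3 per list, comparison and direction. The members and gene lists were chosen with earlier results of these data known. Promoter sequences are from RefSeq.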

Additional observations from a re-analysis of the deposited data

Results flagged for a closer look

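Of 140 groups of tumours over 35 collagen measures, 18 held 1 tumour far from the rest, by a gap to the nearest tumour above the Dixon 95% limit for the group size. For normally distributed values chance gives about 1 in 20 groups such a tumour. The values used were not logged, and each of the 18 tumours was the highest of its group.

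In type I collagen, Col1a1 stood at 6636 scaled CPM in responder 7, with the nearest other tumour of its group at 3933. Col1a2 stood at 3948 scaled CPM in responder 7, with the nearest other tumour of its group at 2669. Col18a1 stood at 218 scaled CPM in stable 5, with the nearest other tumour of its group at 178. Col10a1 stood at 29.3 scaled CPM in responder 5, with the nearest other tumour of its group at 16.0. Col11a2 stood at 26.998 scaled CPM in responder 1, with the nearest other tumour of its group at 14.5. Col17a1 stood at 47.4 scaled CPM in control 3, with the nearest other tumour of its group at 9.54. Col17a1 stood at 206 scaled CPM in responder 8, with the nearest other tumour of its group at 34.1. Col20a1 stood at 66.2 scaled CPM in control 2, with the nearest other tumour of its group at 33.8. Col20a1 stood at 70.2 scaled CPM in responder 3, with the nearest other tumour of its group at 29.9. Col27a1 stood at 46.9 scaled CPM in control 2, with the nearest other tumour of its group at 27.2. Col2a1 stood at 1.15 scaled CPM in stable 5, with the nearest other tumour of its group at 0.435. Col2a1 stood at 4.62 scaled CPM in responder 3, with the nearest other tumour of its group at 1.52. Col4a3 stood at 3.01 scaled CPM in stable 3, with the nearest other tumour of its group at 1.44. Col4a5 stood at 19.0 scaled CPM in responder 1, with the nearest other tumour of its group at 10.1. Col6a4 stood at 1.19 scaled CPM in control 5, with the nearest other tumour of its group at 0.405. Col8a2 stood at 6.66 scaled CPM in responder 8, with the nearest other tumour of its group at 3.12. Col9a3 stood at 8.48 scaled CPM in responder 1, with the nearest other tumour of its group at 4.47. The fibrillar sum stood at 2573 RPKM in responder 7, with the nearest other tumour of its group at 1670.1.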

How the results depend on the processing

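The fold changes followed here are of up to 6 called collagens per class and comparison, 6 fixed collagens and the named pathway genes. Others given above, such as those of Col16a1, Col5a1, Col5a2 and Col6a3, were not followed. Those followed kept their direction and side of the threshold in 2465 of 2713 values with 1 tumour left out. Under other settings they did so in 2056 of 2459 values. A call was lost in 235 and 357 of these values and gained in 6 and 10, and the sign changed in 7 and 36. For collagens the other settings include the 2-fold requirement, which ends a call of smaller estimate without a new fit. With 1 tumour left out, the number of collagens called ran from 9 to 17 in non-responders against controls, from 23 to 25 in stable tumours against controls, from 28 to 30 in responders against controls, from 6 to 11 in stable tumours against non-responders, from 15 to 18 in responders against non-responders and from 10 to 15 in responders against stable tumours. The lowest of these counts for non-responders against controls was without control 1. For the other pathway genes the same counts ran from 4 to 17 in non-responders against controls, from 34 to 42 in stable tumours against controls, from 36 to 42 in responders against controls, from 6 to 20 in stable tumours against non-responders, from 29 to 39 in responders against non-responders and from 26 to 47 in responders against stable tumours. Fits that adjusted for protein-coding share or left out responders of low share cannot tell that share from response, since 7 of the 8 responders had a low share. With that share as a covariate, 8 collagens (4 higher, 4 lower) were called in responders against non-responders and 0 in responders against stable tumours, and with its log2 the counts were 10 and 0. Without the 2 responders of lowest share, 7 were called against stable tumours. Without all 7 of low share, 8 were called against controls, 0 against non-responders (6 at an unadjusted p under 0.05) and 0 against stable tumours (0 at an unadjusted p under 0.05), while DESeq2 on all tumours called 17 and 13 in the last 2 comparisons. That fit holds responder 5 alone and takes its spread from the other groups. On log2(RPKM + 1), limma called 11 in responders against non-responders, and fitting only stable tumours and non-responders left 5 collagens; the cause was not tested. For the pathway genes, the share as a covariate gave 9 in responders against non-responders, 0 against stable tumours and 17 in non-responders against controls, and its log2 gave 15, 2 and 17. Without the 2 responders of lowest share 17 were called against stable tumours. Without the 7 there were 20 against controls, 0 against non-responders and 0 against stable tumours. With no filter on low counts, 7 were called in stable tumours against non-responders and 5 in non-responders against controls, where DESeq2 called 17. Without the 7, the sign changed in responders against non-responders for Col10a1 (0.088), Col1a1 (-0.72), Col27a1 (-0.48), Col3a1 (0.0074), Col7a1 (-0.20), Bmp1 (-0.21), Adamts14 (-0.067), Sparc (0.048), Ogn (0.58) and Itgb1 (0.13). Without the 7, the sign changed in responders against stable tumours for Col17a1 (-3.25), Col1a1 (-0.84), Col27a1 (-0.12), Col6a1 (0.13), Col7a1 (-0.31), Col9a3 (-0.18), P3h4 (0.057), Ppib (0.25), Serpinh1 (0.10), Bmp1 (-0.19), Adamts14 (-0.11), Lama5 (-0.52), Lama3 (-0.45), Agrn (-0.29), Itgb1 (0.083), Itga10 (-0.082) and Ctsk (0.041). Without the 7, the sign changed in responders against controls for Adamts14 (-0.0012), Sparc (0.23) and Agrn (-0.41). The share as a covariate changed the sign of Sparc (0.053, responders against controls), Lama5 (-0.024, responders against stable tumours) and Lama3 (-0.14, responders against stable tumours). Between responders and stable tumours limma gave Col4a2 as 0.027 with a pseudocount of 1 and 0.027 with a pseudocount of 0.1. Col4a1 in stable tumours against controls was 0.023 under the stricter filter and 0.024 without stable 2, 0.016 without stable 3, 0.0067 without control 2 and 0.00083 without control 3, within a range of -0.059 to 0.024 over single tumours left out. Col1a1 in stable tumours against non-responders was -0.023 without stable 1, -0.0018 without non-responder 3 and -0.032 without non-responder 6, within -0.032 to 0.33. None of the values that changed sign passed the threshold. Restricting to protein-coding genes moved the median log2 fold change of all genes in responders against controls from 0.16 to 0.04. DESeq2, fitted without the filter, had 0.46. No collagen fold change followed here changed sign under either. No paired analysis was possible because the labels give tumours no replicate numbers that link groups. At 8.76 M to 34.3 M counts per library, genes under 1 scaled CPM rest on few reads, and responder 1, with the fewest protein-coding reads, is the least precise.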
